A study of Sus scrofa with 8 samples.

Results

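Heat shock proteins and chaperones were examined in testis RNA of 8 Large White boars, each hybridized to 1 porcine Agilent array with a single dye (Cy3). Of the 7 genes HSP90AA1, HSP90B1, HSPA1L, HSPB1, HSPA5, HSPA8 and HSPD1, a probe was taken as a member if its accession belongs to the gene in the pig RefSeq table or if the supplementary list of the study names it so. This gave 4 of the 2228 genes named on the array and 7 of its 43603 probes, namely 4 for HSP90AA1 and 1 each for HSP90B1, HSPA1L and HSPB1. No probe carried the names HSPA5, HSPA8 or HSPD1, which were therefore not analysed here. Only 3064 probes had a gene name at all, so that further probes for these genes may be on the array under other accessions. The 4 boars m_9597, m_9599, m_9499 and m_9527 were fed a standard diet with added methionine, choline, betaine, folate and the vitamins B6 and B12 between 1 and 10 months of age. The 4 boars m_9598, m_9600, m_9502 and m_9528 were fed the standard diet over the same months. The comparison asks whether this supply of methyl donors altered gene expression in the testis.

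Heat shock proteins are chaperones, which bind unfolded or newly made proteins and help them to fold. HSP90AA1 is the inducible cytosolic HSP90, and HSP90B1 is its relative in the endoplasmic reticulum (ER). HSPA1L belongs to the HSP70 family and is known as a form that is abundant in developing sperm cells. HSPB1 is a small heat shock protein that binds unfolded proteins without using ATP and is abundant in muscle and other contractile cells. The testis makes large amounts of chaperones, and several of them are needed for the formation of sperm.

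The signal of a probe is given as log2 of its median spot intensity after quantile normalization between the arrays, without background subtraction, so that 1 unit is a doubling and differences of dim probes are understated. The median intensity of the spots was between 108 and 192.5 over the arrays, and no spot was saturated. The 4 brothers m_9597, m_9598, m_9599 and m_9600 shared 1 slide, and the remaining 4 boars shared a second one, so that litter and slide cannot be told apart. The study took the boars from 3 litters and divided each litter between the diets, and which of the remaining 4 boars were littermates is not given in the sources used here. Each slide held both diets, but supplemented boars lay at places 1 and 3 and control boars at places 2 and 4 of both slides, and the effects of diet and of place cannot be told apart. Leaving out the control boar m_9502 raised the number of probes with a limma P-value under 0.05 from 689 to 6155 of the 36982 probes present in the testes. Present probes were found for 6 of the 12 genes listed as spermatid markers and for 7 of the 7 listed for Leydig cells. As the samples are pieces of whole testis, fewer cells of a type and less RNA per cell cannot be told apart.

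Every member probe passed the background test on each of the 8 arrays. The HSP90AA1 spots were between 2241 and 11509 times as bright as their local background, the HSP90B1 spot between 2540 and 4740 times, the HSPA1L spot between 1878 and 3848 times and the HSPB1 spot between 146 and 315 times. These ratios describe spots and not the number of transcripts, since probes differ in how strongly they bind.

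No member probe differed between the diets after adjustment. None of the 7 had an adjusted p under 0.05 in limma, where the share was 0% of all present probes, and none had an unadjusted P-value under 0.05, where the share was 1.86%. In none of them did the boars of the diets separate without overlap, which happened in 1.13% of the present probes. The differences between the diet means were between 1.09-fold for HSP90B1 and 1.42-fold for an HSP90AA1 probe, and 4 of the 7 were positive, that is higher on the supplemented diet. The median of the 7 log2 fold changes was 0.12, against -0.0028 over all present probes. As 4 of the 7 probes read HSP90AA1, with differences of both signs, this median is the value of the single HSP90B1 probe. With array weights, which give noisier arrays less weight, 2 of the 7 had an unadjusted P-value under 0.05, against 15.8% of all present probes. In the litter of 4 brothers alone, with 2 boars on each diet, 4 of the 7 had no overlap between the diets, against 37.1% of all present probes.

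**Figure D1:**
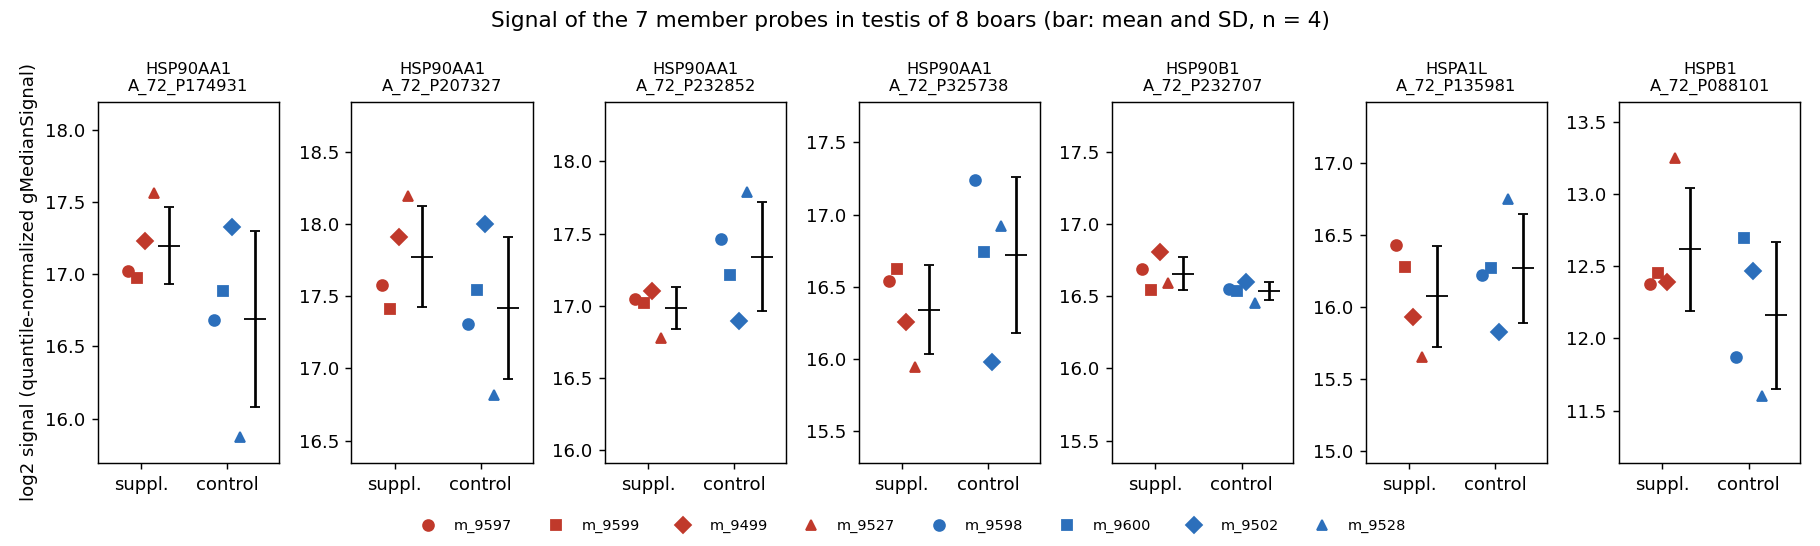
Log2 signal of the 7 member probes in each of the 8 boars, with the supplemented diet in red and the control diet in blue and a bar for the mean and SD of each diet (n = 4). Each panel spans the same 2.5 log2 units. The diets overlap in every panel, and HSP90B1 has the narrowest spread.

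HSP90AA1, which folds many kinases and hormone receptors, was read by 4 probes that did not move together. The probe A_72_P174931 had a log2 signal of 17.02, 16.97, 17.23 and 17.56 in the supplemented boars m_9597, m_9599, m_9499 and m_9527. In the control boars m_9598, m_9600, m_9502 and m_9528 it had 16.68, 16.88, 17.33 and 15.87. The control boar m_9528 was the lowest of all, and the control boar m_9502 lay among the supplemented boars, above 3 of them. The supplemented mean was higher by 0.51 on the log2 scale (SE 0.29, limma adjusted p = 0.840), with a 95% confidence interval from -0.14 to 1.16.

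The second probe of this kind, A_72_P207327, had 17.58, 17.41, 17.91 and 18.19 in the supplemented boars and 17.31, 17.54, just under 18 and 16.82 in the control boars, in the same order. Its highest and lowest boars were again m_9527 and m_9528. The supplemented mean was higher by 0.36 (SE 0.27, limma adjusted p = 0.840).

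The other pair of HSP90AA1 probes was high in boars where the first pair was low. A_72_P232852 had 17.04, 17.02, 17.10 and 16.78 in the supplemented boars and 17.46, 17.22, 16.90 and 17.79 in the control boars. Here m_9528 was the highest and m_9527 the lowest, and 3 of the 4 control boars lay above all supplemented boars. The supplemented minus control difference was -0.35 (SE 0.20, limma adjusted p = 0.840), with a 95% confidence interval from -0.80 to 0.09.

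A_72_P325738 had 16.54, 16.62, 16.26 and 15.94 in the supplemented boars and 17.24, 16.74, 15.98 and 16.92 in the control boars. The same 3 control boars lay above all supplemented boars, m_9598 was the highest, and m_9502 lay near the lowest. Here the difference was -0.38 (SE 0.27, limma adjusted p = 0.840).

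The 4 probes thus fell into 2 pairs with mirrored profiles over the boars. As a description over 8 boars that share litters, Pearson's r was 0.97 between A_72_P174931 and A_72_P207327 and 0.82 between A_72_P232852 and A_72_P325738, and it lay between -0.96 and -0.78 for probes of different pairs. After each probe was centred on its own mean, the mean of the first pair minus the mean of the second was 1.09 in m_9527, 0.80 in m_9502, 0.47 in m_9499, 0.08 in m_9597, -0.05 in m_9599, -0.19 in m_9600, -0.78 in m_9598 and -1.43 in m_9528. The boars at both ends, m_9527 and m_9528, are of different diets and on the same slide. All 4 probes carry the same RefSeq transcript as their target, and where each lies on the transcript is not given in the sources used here. Probes of one gene did not split in this way for HSPE1, HSPA13 or XBP1, which are each read by 3 probes, and where Pearson's r between probes of the same gene was between 0.78 and 0.97. It was 0.45 for the 2 probes of HSPH1, 0.51 for those of DNAJA4 and 0.88 for those of HSBP1. Beside HSP90AA1, only genes of the chaperone list were compared in this way.

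**Figure D2:**
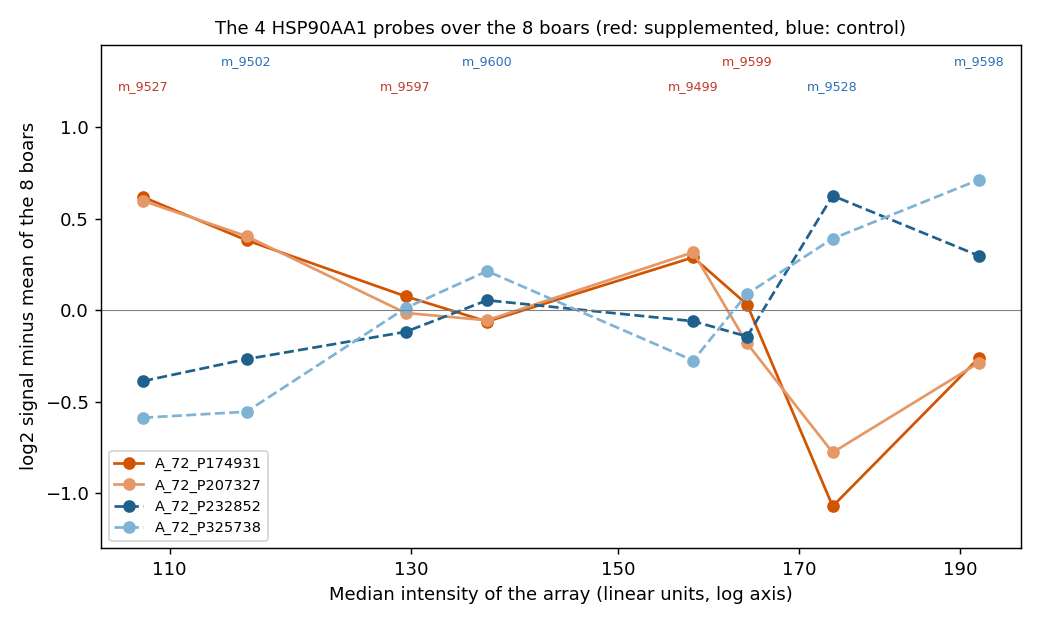
Log2 signal of the 4 HSP90AA1 probes, each minus its mean over the 8 boars, plotted against the median intensity of the array on a log axis, with boars of the supplemented diet named in red and control boars in blue. The probes A_72_P174931 and A_72_P207327 are highest on the dim array of m_9527 and lowest on that of m_9528, while the other pair is lowest on that of m_9527 and highest on those of m_9528 and m_9598.

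The brightness of the arrays moved with these profiles. The arrays of m_9527 and m_9502 had the lowest median intensities, 108 and 116, and those of m_9598 and m_9528 the highest, 192.5 and 174. The relation of each member probe to log2 of the median intensity of the array was computed over the 8 boars, with 7 relations in all and exact permutation tests (two-sided, Benjamini-Hochberg adjusted over the 7). These relations were not among the planned tests. The permutations treat boars that share litters as independent, and the relations of the HSP90AA1 probes are not independent of each other. Pearson's r was -0.70 for A_72_P174931 (Spearman's rho -0.86, exact p = 0.0343 and 0.0107, adjusted 0.0481 and 0.025). It was -0.77 for A_72_P207327 (rho -0.90, exact p = 0.0236 and 0.00456, adjusted 0.0413 and 0.025). For A_72_P232852 it was 0.78 (rho 0.81, exact p = 0.0160 and 0.0218, adjusted 0.0374 and 0.0381). For A_72_P325738 it was 0.84 (rho 0.88, exact p = 0.0107 and 0.00724, adjusted 0.0374 and 0.025).

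HSPB1 had r = -0.80 with array brightness (rho -0.76, exact p = 0.0125 and 0.0368, adjusted 0.0374 and 0.0515). HSPA1L had 0.61 (rho 0.55, exact p = 0.107 and 0.171, adjusted 0.125 and 0.199) and HSP90B1 had -0.22 (rho -0.45, exact p = 0.601 and 0.267, adjusted 0.601 and 0.267). Without the boars m_9527 and m_9598, whose arrays were farthest from the median brightness, r kept its sign in all 7 probes, with sizes from 0.58 to 0.68 for HSPB1 and the 4 HSP90AA1 probes, 0.53 for HSPA1L and 0.24 for HSP90B1. A size of r above 0.7 was found for 5 of the 7 member probes and for 29.7% of all present probes. Of these 5 member probes, 4 read HSP90AA1 and are not independent. Each slide holds too few arrays for a value within it. With array brightness as a covariate, an alternative chosen after seeing the data, the log2 fold changes between the diets were 0.36 and 0.21 for the first HSP90AA1 pair and -0.25 and -0.21 for the second. They were 0.29 for HSPB1, -0.10 for HSPA1L and 0.12 for HSP90B1, and limma gave an adjusted p of 0.9997 for each of the 7.

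The HSP90AA1 differences rested on single boars in both directions. Without the control boar m_9528 the log2 fold changes were 0.23 for A_72_P174931, 0.16 for A_72_P207327, -0.21 for A_72_P232852 and -0.31 for A_72_P325738. Without the supplemented boar m_9527 they were 0.38, 0.22, -0.28 and -0.25 in the same order, and without the control boar m_9598 that of A_72_P325738 was -0.21. Without the control boar m_9502 they were larger, at 0.72 (SE 0.26) for A_72_P174931, 0.55 (SE 0.24) for A_72_P207327, -0.50 (SE 0.18) for A_72_P232852 and -0.63 (SE 0.21) for A_72_P325738. All 4 HSP90AA1 probes, and no other member, had an unadjusted limma P-value under 0.05 in these 7 boars, which is 4 of 7 member probes against 16.6% of all present probes. The diets no longer overlapped in 3 of the 7 probes, against 15.6% of all present probes. The smallest adjusted p among the members was 0.279 from limma. The 4 probes read 1 gene in the same boars, so that they are not 4 independent results.

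**Figure D3:**
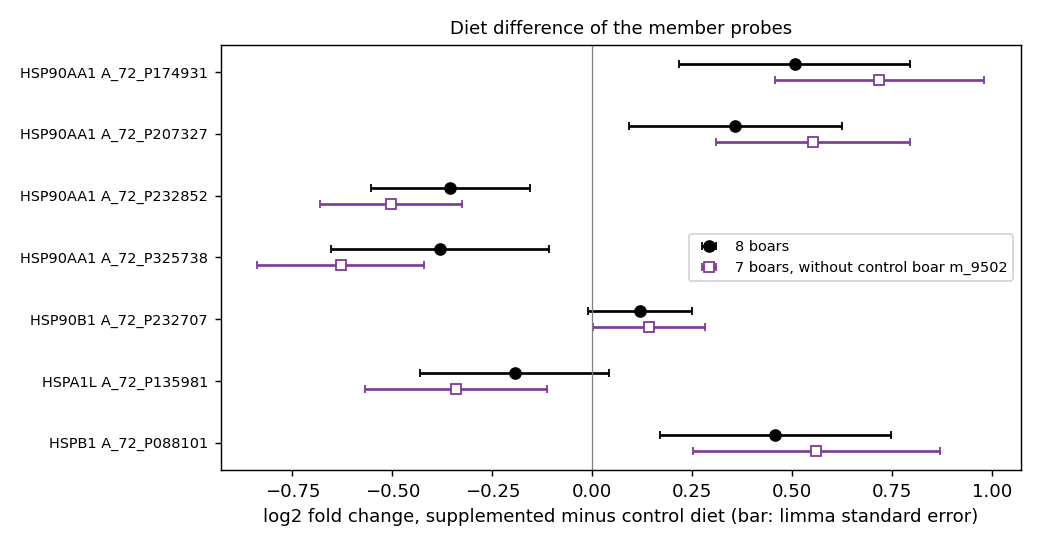
Log2 fold change of the 7 member probes, supplemented minus control diet, with limma standard errors, for all 8 boars (filled circles) and without the control boar m_9502 (open squares). The 4 HSP90AA1 probes lie on both sides of 0, and each moves farther from 0 without this boar.

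HSP90B1, the HSP90 of the ER that folds integrins and Toll-like receptors, was the steadiest member. Its probe A_72_P232707 had a log2 signal of 16.69, 16.54, 16.80 and 16.59 in the supplemented boars m_9597, m_9599, m_9499 and m_9527. It had 16.55, 16.54, 16.60 and 16.45 in the control boars m_9598, m_9600, m_9502 and m_9528. The highest and the lowest boar differed by 1.28-fold, and only 2.54% of the present probes had a smaller SD over the 8 boars than its 0.107. Between the diets it differed by 0.12 on the log2 scale (SE 0.13, limma adjusted p = 0.844), and the 95% confidence interval ran from 0.889-fold to 1.33-fold. Without the supplemented boar m_9499, the highest, the difference was 0.07.

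HSPA1L, a member of the HSP70 family, was read by the probe A_72_P135981. The signal was 16.43, 16.27, 15.93 and 15.65 in the supplemented boars and 16.22, 16.27, 15.83 and 16.75 in the control boars. The lowest boar was again m_9527 and the highest m_9528, and the diets overlapped over most of their range. The diet means differed by -0.19 (SE 0.24, limma adjusted p = 0.854), and by 0.11 in the litter of 4 brothers alone. Without single boars it lay between -0.34, without m_9502, and -0.03, without m_9528. Without m_9597 it was -0.31 and without m_9527 it was -0.05. Genes of the HSP70 family share long stretches of sequence, and whether this probe also binds transcripts of its relatives was not tested. The 6 spermatid markers that were present, among them PRM1 and PRM2, which pack sperm DNA, had a median of -0.21 in m_9527 and 0.20 in m_9528 relative to the mean of the boars, the lowest and the highest of the 8. Their summed log2 level was between 19.71 and 19.94 on the supplemented and between 19.74 and 20.06 on the control diet. Each marker probe was below its own mean in m_9527, from -0.0055 for PRM1 to -0.79 for ZPBP. In m_9528 all but SPAM1, at -0.43, were above it, up to 0.61 for ZPBP. The list medians were 0.06 in m_9499, 0.04 in m_9597 and 0.03 in m_9599. They were 0.02 in m_9598 and m_9600 and -0.06 in m_9502. HSPA1L relative to its own mean was 0.26 in m_9597, -0.24 in m_9499 and -0.34 in m_9502, so that its order was not that of the list. The part of the spermatid markers in the HSPA1L values was not tested.

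HSPB1, the small heat shock protein, was read by the probe A_72_P088101. It had 12.38, 12.45, 12.39 and 13.25 in the supplemented boars and 11.87, 12.69, 12.47 and 11.60 in the control boars. The supplemented boar m_9527 stood apart above all others, and the control boars m_9598 and m_9528 were the lowest. The mean was 12.62 ± 0.42 (SD, n = 4) with supplementation and 12.16 ± 0.51 (SD, n = 4) without it. This is a difference of 0.46 (SE 0.29, limma adjusted p = 0.840), with a 95% confidence interval from 0.877-fold to 2.15-fold. Without m_9527 the difference was 0.25, and without the control boar m_9528 it was 0.27.

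Markers of peritubular cells, the contractile cells around the seminiferous tubules, had the same highest boar as HSPB1 and the same 2 lowest. Of 5 listed genes, CNN1 and DES had present probes, 4 in all, and their median relative to the mean of the boars was 0.53 in m_9527, 0.39 in m_9600, 0.17 in m_9599, 0.08 in m_9597, 0.07 in m_9502, -0.16 in m_9499, -0.45 in m_9528 and -0.46 in m_9598. The 3 highest boars of HSPB1 were m_9527, m_9600 and m_9502, and the 2 lowest were the 2 lowest in this list. The summed log2 level of the list was between 14.64 and 15.44 on the supplemented and between 14.14 and 15.18 on the control diet. The dim DES probe A_72_P350098, with a mean log2 signal of 5.43, went the other way, at -0.35 in m_9527 and 0.19 in m_9598. The macrophage list was also high in m_9600 and m_9527, at 0.67 and 0.46, and low in m_9528 and m_9598, at -0.39 and -0.42. Its lowest boar, however, was m_9502, at -0.45, which was among the 3 highest of HSPB1. The macrophage list had 0.18 in m_9499, 0.0003 in m_9597 and -0.04 in m_9599. The part of either list in the HSPB1 values was not tested.

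**Figure D4:**
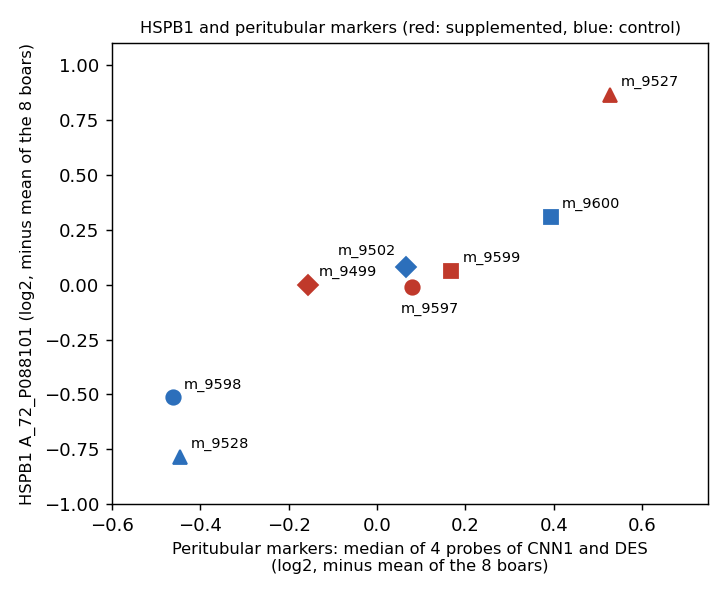
Log2 signal of HSPB1 (vertical axis) and the median of 4 probes of the peritubular markers CNN1 and DES (horizontal axis) in each boar, both minus the mean of the 8 boars, with supplemented boars in red and control boars in blue. The boar m_9527 is highest on both axes, and m_9598 and m_9528 are lowest on both.

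No member probe passed the test for litter. Beside diet, the difference between the 4 brothers and the other 4 boars was largest for HSP90AA1 A_72_P325738, at 0.51 on the log2 scale (SE 0.23, adjusted p = 0.615 from limma). None of the 7 member probes had an unadjusted P-value under 0.05 for the litter, where the share was 8.11% of all present probes, and none had an adjusted p under 0.05, where it was 0%. For the test of whether the diet difference itself was unequal between the brothers and the other boars, no member had an unadjusted P-value under 0.05, where the share of all present probes was 2%. The interaction was largest in size for HSPB1, at -0.66 (SE 0.61), so that a difference of this size was not detectable with 2 boars of each diet on each slide.

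By the root mean square distance between centred profiles over the 8 boars, the named genes most like HSP90AA1 A_72_P174931 were TLR9 (distance 0.109), DSPP (0.118) and PNISR (0.123). For HSP90B1 they included RPSA (0.0587) and BCKDHB (0.0588), and for HSPA1L they were ATP1B4 (0.0652), MED7 (0.0944) and RHCE (0.0944). The distance is not scaled to the spread of a probe, so that only other steady probes can lie near the steady HSP90B1 probe. The genes most like HSPB1 were MMP2 (0.127), SULT1A3 (0.131) and FOXN3 (0.133). The distance between the members of an HSP90AA1 pair was 0.133 and 0.248, and between members of different pairs it was 0.697 to 0.852.

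The other genes of the chaperone system were taken from a list of 158 genes, of which 19 had a named probe, 28 probes in all. Of these 28 probes, 2 were higher and 1 was lower on the supplemented diet with an unadjusted limma P-value under 0.05, against 1.86% of all present probes, and none had an adjusted p under 0.05. The 28 log2 fold changes had a median of -0.17, against -0.0028 over all present probes, and 22 were negative. HSPA13, HSPE1 and XBP1 each gave 3 of the negative values, so that the 28 are not independent. With array brightness as a covariate, chosen after seeing the data, the median of the 28 was -0.086. For 1 of the 28 the boars of the diets lay apart without overlap, against 1.13% of all present probes. The probes behind both counts were named only by the study's list of probes with a P-value under 0.05, not by the RefSeq table. They joined the 28 through that P-value in these boars, so that neither count is a result about the chaperones. UNC45B was well above background in 2 control boars and in 0 supplemented boars, so that it has only a bound on the supplemented diet.

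The largest positive difference of the 28 was that of the HSP90 family probe A_72_P424164, which the study names HSP90AB3P. Which HSP90 gene this probe binds was not tested. It is 1 of the 3 listed chaperone probes that the study itself picked for a P-value under 0.05 in these boars, so that its difference is no independent evidence. Its sequence is shown because it is the only HSP90 probe with a sequence in the sources used here.

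HSP90AB3P A_72_P424164: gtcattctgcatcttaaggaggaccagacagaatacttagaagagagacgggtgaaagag

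The 60 bases have a GC content of 45% and no stop codon in 1 of the 3 forward frames. No part is set in capitals, since no motif was searched. The signal was 13.65, 13.32, 13.62 and 13.86 in the supplemented boars m_9597, m_9599, m_9499 and m_9527, and 13.05, 13.32, 13.35 and 12.52 in the control boars m_9598, m_9600, m_9502 and m_9528. As in the first pair of HSP90AA1 probes, m_9527 was the highest and m_9528 the lowest. The diet difference was 0.55 (SE 0.21, limma adjusted p = 0.840).

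BAG5, a co-chaperone that inhibits HSP70, was the probe without overlap. Its probe A_72_P358448 had 13.84, 13.64, 13.67 and 13.57 in the supplemented boars and 12.93, 13.48, 13.51 and 13.27 in the control boars. The gap between the lowest supplemented and the highest control boar was small beside the spread of the control boars. For BAG5 the diet difference was 0.38 (SE 0.17, limma adjusted p = 0.840). BAG6, another co-chaperone, which escorts newly made membrane proteins, had a log2 fold change of -0.04 (A_72_P178556).

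HERPUD1, which takes part in the removal of unfolded proteins from the ER, was the lower of the 3. Its probe A_72_P164671 had 10.84, 11.05, 10.89 and 10.80 in the supplemented boars and 11.56, 11.16, 10.98 and 11.72 in the control boars. Only m_9502 among the control boars lay within the range of the supplemented diet. Its diet difference was -0.46 (SE 0.19, limma adjusted p = 0.840). BAG5 and HERPUD1 were also picked by the study on these boars.

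The other probes of ER folding had no P-value under 0.05. The 3 probes of XBP1, a transcription factor of the unfolded protein response, had log2 fold changes of -0.31, -0.25 and -0.50, of which the last, A_72_P420219, varied 4.73-fold over the boars. In the HSP70 family the 3 probes of HSPA13 had -0.89, -0.61 and -0.53, and the widest of them, A_72_P028176, ran from 6.77 in m_9527 to 10.14 in m_9528, a range of 10.3-fold. HSPH1, which exchanges the nucleotide of HSP70, had -0.37 (A_72_P035611) and -0.11 (A_72_P050661). HSPE1, the mitochondrial partner of HSPD1, had -0.36, -0.42 and -0.14.

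Among the J-domain proteins, which hand unfolded proteins to HSP70, DNAJC15 had -0.32 and the DNAJA4 probes had -0.08 and -0.07. HSBP1, which binds heat shock factor, had -0.16 and -0.17. ODF1, a small heat shock protein of the sperm tail, had 0.02. CLU, an extracellular chaperone made by Sertoli cells, had -0.28, and its control boar m_9502 was far below the other controls. In the 7 boars without m_9502, 2 of the 28 probes were higher and 11 lower at an unadjusted P-value under 0.05, which is 13 probes against 16.6% of all present probes, with a smallest adjusted p of 0.279 from limma. Without this boar 8 of the 28 had no overlap between the diets, against 15.6% of all present probes. Both counts include HSP90AB3P, BAG5 and HERPUD1, which only the study's list of low P-values brought into the 28. Differences that were larger in size without this boar include those of XBP1, at -0.55, -0.47 and -0.87, the HSPA13 probe A_72_P028176, at -1.36, HSPE1, at -0.63, -0.69 and -0.28, and CLU, at -0.77. The same held for HSPH1, at -0.58 and -0.19, DNAJA4, at -0.15 and -0.12, and HSBP1, at -0.27 and -0.26.

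**Figure D5:**
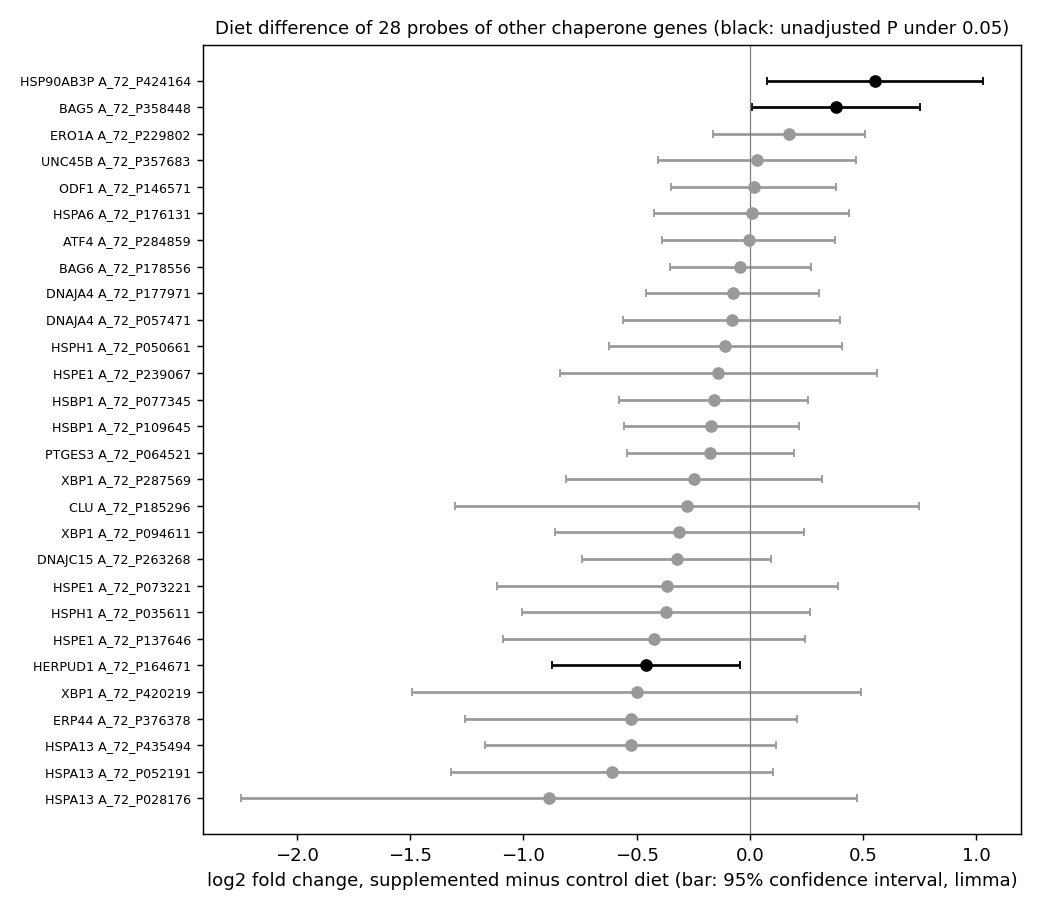
Log2 fold change of 28 probes of 19 other chaperone genes, supplemented minus control diet, with 95% confidence intervals from limma and probes with an unadjusted P-value under 0.05 in black. The intervals of 3 probes leave out 0, those of HSP90AB3P and BAG5 above it and that of HERPUD1 below it. These 3 were named only by the study's list of probes with a P-value under 0.05 in these boars. Of the 28 points, 22 lie below 0.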

How the data were processed

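The authors deposited, per boar, the scanner output of Agilent Feature Extraction 10.5.1.1 (per the file headers), whose intensity values are not normalized between arrays. They also deposited log2 values of 35258 probes, which differed from the values computed here by 0.056 at most and served as an alternative. Median spot signals, control spots left out, were converted to log2 and quantile-normalized, and spots of a probe were averaged. Probes counted as present when, in either diet, 2 or more of the 4 arrays had a signal above 25 and the flag gIsWellAboveBG. Diets were compared by limma 3.58.1 in R 4.3.3, two-sided, without a block, with Benjamini-Hochberg adjustment over 36982 probes. The code was tested on simulated data.

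Of 3239 probes with a RefSeq accession, 2628 matched the RefSeq gene table (assembly Sscrofa11.1, used for names only). The number of arrays limits the precision. The limma P-values rest on the spread between these boars, with the variance of each probe drawn towards that of all present probes. Without a block they treat littermates as independent boars. The members, the chaperone list and the marker lists were chosen with earlier results of these data known. Named were all member probes and, of the chaperone list, the probes with P under 0.05 or picked by the study and the brightest and widest of each group. HSPA13, XBP1, HSPE1, HSPH1, DNAJA4 and HSBP1 are given with all their probes. Markers of 10 cell types were listed, and those of red blood cells had no named probe. The lists of Sertoli cells, spermatogonia, spermatocytes, macrophages, endothelium and duct epithelium are given in the closing section. The columns of the study's supplementary list with its own averages and P-values were not used. Figures were drawn with matplotlib 3.10.9. Of the genes with profiles most like those of the members, 1 is not reported here.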

Additional observations from a re-analysis of the deposited data

Results flagged for a closer look

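Of 44 groups of 4 boars formed by the named probes and the diets, 2 had a boar far from the other 3, where chance gives about 2.2 (1 in 20). The HSPB1 probe A_72_P088101 was high in the supplemented boar m_9527, at 13.25 against 12.38 to 12.45 in the other boars of its diet. The same boar had the highest peritubular marker median, 0.53, and the dimmest array. The part of the markers was not tested, and with array brightness as a covariate the HSPB1 diet difference was 0.29 in place of 0.46. The CLU probe A_72_P185296 was low in the control boar m_9502, at 13.13 against 14.99 to 15.30 in the other control boars.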

How the results depend on the processing

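No member probe had an adjusted p under 0.05 in limma or in the ordinary equal-variance test under any of the 23 alternatives, and none had an unadjusted P-value under 0.05 under 21 of them. The exceptions were array weights, with 2 member probes against 15.8% of all present probes, and the 7 boars without m_9502, with 4. Leaving out single boars gave 0 to 4. The diets did not overlap in 4 member probes in the litter of 4 brothers alone, against 37.1% of all present probes, and in 0 to 3 when single boars were omitted. The HSPA1L difference turned to 0.11 in the brothers alone. The median of the member log2 fold changes was 0.20 when arrays were aligned by the upper quartile of the median signal. Of the 28 listed chaperone probes 3 had an unadjusted limma P under 0.05 in the 8 boars, against 689 of all 36982 present probes. Only the study's list named these 3. The number was 0 with the background-subtracted signal (1019 of all present probes) and 1 with an intensity trend and robust variances (718). It was 10 with array weights (5830), 0 in the other 4 boars alone (359) and 0 to 13 when single boars were omitted (339 to 6155). It was 0 without m_9597 (568), m_9499 (751), m_9598 (369) or m_9528 (339), 1 without m_9527 (438) and 13 without m_9502 (6155). The cause was not tested. With the slide as a block no call on a member changed, and 2 listed chaperone probes had P under 0.05, against 726 of all present probes. The counts for the litter and the diet by litter interaction stayed at 0 under both other scalings. Array brightness as covariate was chosen after seeing the data. The labels give the boars no replicate numbers by which to pair them, and the slide is the nearest block to the litter that could be fitted.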

Other observations

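The marker lists of other cell types are given as the median of their present probes in each boar, relative to the mean of the 8 boars, with no test. The Leydig cell list was highest in m_9499, at 1.07, and lowest in m_9527, at -0.92. The median of the Sertoli cell list stayed between -0.18 and 0.12, but some of its probes varied more. CLU ran from -1.35 in m_9502 to 0.82 in m_9598, and SOX9 from -0.45 in m_9528 to 0.67 in m_9527. The spermatogonia list was highest in m_9600, at 0.64, and lowest in m_9528, at -0.49. The spermatocyte list was highest in m_9528, at 0.45, and between -0.13 and 0.08 in the other boars. It held only 2 probes, which parted in some boars, with PGK2 at -0.35 and SPO11 at 0.12 in m_9527. The macrophage list was highest in m_9600, at 0.67, and lowest in m_9502, at -0.45. The endothelium list was highest in m_9600, at 0.35, and lowest in m_9502, at -0.29. The duct epithelium list ran from -1.84 in m_9597 to 1.44 in m_9598. CLU stands both in the Sertoli cell list and in the chaperone list, and ODF1 both in the spermatid list and in the chaperone list.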
